A study of Macaca mulatta with 95 samples.

Results

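Gene expression at the 16-cell stage was compared with that of the early morula in cultured embryos of the rhesus macaque (Macaca mulatta). The comparison holds every cell titled as 16-cell (5 cells, 3 outer and 2 inner) and every cell titled as early morula (10 cells, 5 outer and 5 inner), together 15 of the 95 single cells sequenced over 7 stages. Oocytes came from hormone-stimulated females, and the fertilised embryos grew in HECM-9 medium with serum until about day 3 for the 16-cell stage and about day 4 for the early morula, whose blastomeres had compacted. No genotype or treatment differs between the stages. A fluorescent membrane dye had marked the outer cells before the embryos were taken apart, and each cell was picked by hand, lysed and turned into poly(A)-tailed, PCR-amplified complementary DNA. No label names the animal or embryo of a cell, so each stage counts as 1 sample, no test was run, and the SD beside a mean is the spread over its 5 or 10 cells. All cells of the 16-cell stage carry the title letter B and all early morula cells the letter H, which the labels do not explain, so stage and letter cannot be told apart in this comparison.

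The early embryo runs at first on RNA and protein stored in the oocyte. These maternal RNAs lose their poly(A) tails and are degraded while the embryo's own genome is switched on. At compaction the blastomeres flatten against each other through E-cadherin, gain an outer apical side, and through the Hippo pathway turn that polarity into the later split between trophectoderm, which builds the placenta, and inner cell mass.

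Levels are RPKM, the reads per kilobase of a gene and per megareads of a library. A gene counted as measured where its mean reached 5 RPKM in at least 1 of the stages, and as higher or lower where the means, after 1 RPKM was added to each, differed by at least 2-fold. Of 6709 measured genes 3002 (44.7%) were higher and 1681 (25.1%) lower in the early morula, with a median log2 ratio of 0.64. Median-of-ratios size factors, which equalise the median gene instead of the total, shift the median by -0.63 log2 units, and scaling on the summed level of genes detected in each of the 15 cells by 0.12. The former make the split 2461 to 2330, so 51.4% of the called genes are then higher in place of 64.1%. In 902 genes (13.4%) every early morula cell lay above every 16-cell cell, and in 399 (5.95%) every one lay below. Such genes are called separated here. Each list's counts of higher, lower and separated members below are to be read beside these shares of all measured genes.

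Depth was similar in both stages. The reads recovered from the steps of the values ran from 5.68 to 8.05 megareads in 16-cell cells (median 6.39) and from 6.10 to 8.00 in early morula cells (median 7.19). Between 5327 and 5940 genes reached 1 RPKM in a 16-cell cell and between 5610 and 7379 in an early morula cell. After every cell was thinned to 5.68 megareads, the number of genes with a read was 6307 to 7440 (median 6595) against 6382 to 7830 (median 6993.5), so these ranges overlap. The 100 most abundant genes held 47.7% to 49.4% of the signal in 16-cell cells and 39.9% to 46.9% in early morula cells. Across 9139 genes Spearman's rho was 0.70 to 0.80 between early morula cells, 0.75 to 0.89 between 16-cell cells and 0.52 to 0.59 between stages. The first principal component (36.6% of the variance) parted the stages without overlap, while the second (7.65%) set the cell EM_inner H-05 apart at 118.5, the next cell being at 32.7. Both inner 16-cell cells, B-01 and B-02, were unusually alike. Of 5460 genes with at least 20 reads summed over both cells, 134 (2.45%) had no read in 1 of them. This was the lowest share among all 4465 pairs of the series, against 11.98% to 20.0% in the other pairs of 16-cell cells. The labels list them as separate cells, and whether they share material was not tested. With this pair counted as 1 cell the split was 2992 higher to 1687 lower.

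**Figure D1:**
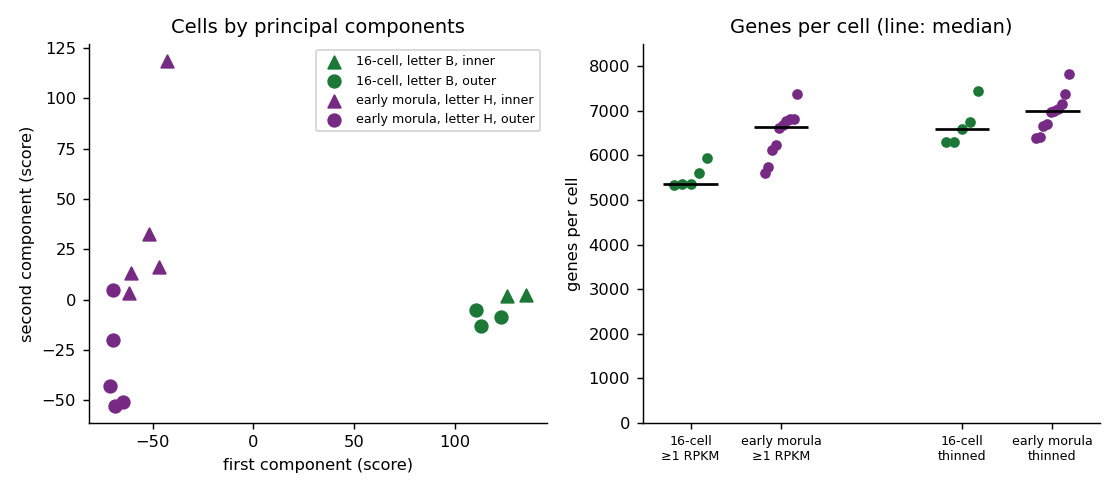
The left panel plots the 15 cells by their first 2 principal components (log2(RPKM + 1), 9139 genes; circles outer, triangles inner). The right panel gives genes per cell at 1 RPKM or more and genes with a read after thinning to 5.68 megareads, each point 1 cell, lines medians. The stages lie apart on the first component, and the thinned gene counts overlap.

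The middle blastocyst is a stage with inner cells of both letters, 4 of letter B and 4 of letter H, and their log2 ratio (H over B, called the letter ratio below) shares no cell with the stage comparison. There 3033 of 5990 measured genes (50.6%) were higher with letter H and 1728 (28.8%) lower. Of the 2066 genes higher in the early morula and measured there, 1770 (85.7%) were also higher with letter H. Of the 1244 genes lower in the early morula, 764 (61.4%) were lower with letter H. Across the 5041 genes measured in both, which are not independent, Pearson's r of the stage and the letter ratio was 0.68 and Spearman's rho 0.70. The letters may also differ in cell type at that stage, which was not tested. KRT18, a keratin of epithelial cells, averaged 11688 RPKM in the B cells and 416 in the H cells. TFAP2C, a trophectoderm gene, went the other way, at 1.44 RPKM in the B and 44.0 in the H cells. Of 9 trophectoderm markers with a letter ratio 3 were higher and 5 lower with letter H, and of 10 epiblast markers 3 and 6. POU5F1, a pluripotency factor, averaged 7966 RPKM in the B and 1489 in the H cells. For a gene whose letter ratio has the sign of its stage ratio, a difference between the stages and one between the letters cannot be told apart. Among the 1132 genes within 2-fold between the letters, 186 (16.4%) were higher and 324 (28.6%) lower in the early morula, with a median of -0.32. The letter median of all genes measured there was 1.06, so genes near 0 lie on the low side of the letter ratio. As the stage and letter ratios correlate, a lower stage median in this subset was partly fixed by that choice. Under median-of-ratios size factors the stage median of all measured genes was 0.02, and this subset was not rescaled. A further 1668 genes were not measured at the middle blastocyst. Of these 936 (56.1%) were higher and 437 (26.2%) lower, and their median was 1.41. A gene described below with its values has its letter ratio beside them where it was measured at the middle blastocyst. Each letter mean rests on 4 cells, whose SD can exceed the mean. A letter ratio, and whether it is within 2-fold or of opposite sign, can therefore hang on few cells. Where 2 values follow a gene in brackets, the first is its stage ratio and the second its letter ratio, both log2.

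**Figure D2:**
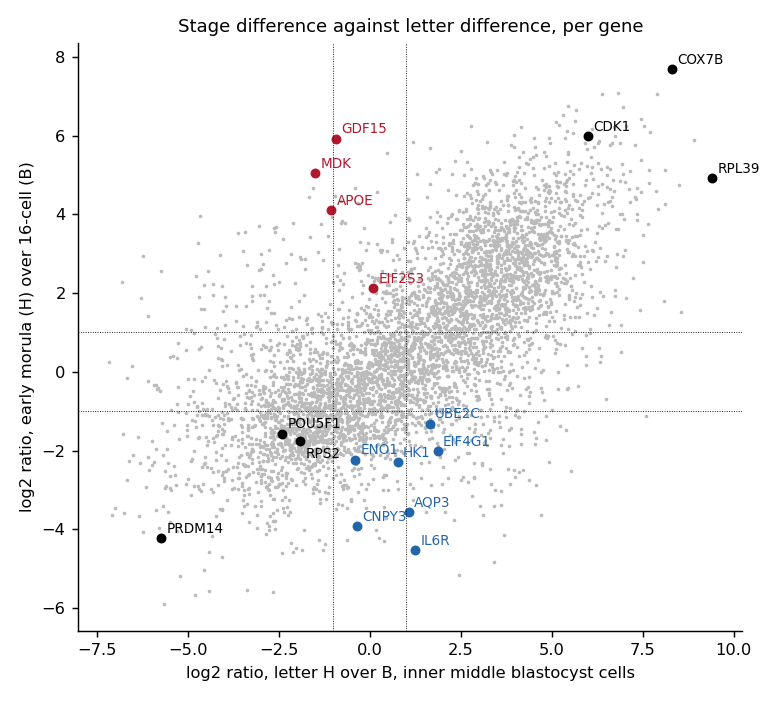
Each point is 1 of the 5041 genes measured in both comparisons, with the letter ratio in inner middle blastocyst cells on the horizontal axis and the stage ratio on the vertical axis (both log2); dotted lines mark 2-fold. Black genes differ alike in both, red genes are higher and blue genes lower in the early morula without a letter difference of the same sign past 2-fold.

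Maternal genes were mixed. Of 24 oocyte genes 9 were measured, and 6 were lower and 2 higher in the early morula, with a median of -2.30. Of the 9, 3 had a letter ratio, so most of these genes have no such value beside them. TCL1B, of the TCL1 family of kinase coactivators, averaged 86.0 RPKM (SD 94.2) in 16-cell and 10.7 (11.8) in early morula cells, a ratio of -2.90, or -2.0 without 16C_inner B-02, with a letter ratio of -3.51. ASTL, the ovastacin protease that hardens the zona after fertilisation, rested on single cells, with a ratio of -3.65, or -2.38 without 16C_outer B-02. NPM2, the histone chaperone of the egg, rested on the inner 16-cell cells (-2.77, or -1.16 without 16C_inner B-01), with -0.03 between outer and -3.95 between inner cells. GDF9, an oocyte growth factor, was listed at 0 in all 5 16-cell cells and ranged between 0 and 37.3 RPKM with a median of 0.0136 in the early morula. DPPA3, which guards maternal methylation marks, went the other way and is separated. It read 51.3, 22.0 and 60.4 RPKM in outer and 34.3 and 66.9 in inner 16-cell cells. Early morula cells lay between 1379.6 and 2997 RPKM with a median of 1941, a ratio of 5.39 beside a letter ratio of 7.45. Cells of the late morula carry the letter D and are shallower, at 1.54 to 6.71 recovered megareads, and averaged 34.1 RPKM.

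Genes of the subcortical complex that the oocyte lays down, with the NLRP and KH-domain families, differed less. Of 8 measured, 2 were lower and 0 higher, with a median of -0.21. TLE6, a core part of the complex, stood at 76.9, 296 and 149 RPKM in outer and 0.515 and 98.1 in inner 16-cell cells. In the early morula it ranged between 0 and 43.8 RPKM with a median of 4.72. The stages overlap through the inner 16-cell cell B-01, while the other 4 16-cell cells lie above every early morula cell. The log2 ratio was -3.65, or -4.36 without EM_inner H-05, beside a letter ratio of -7.09. KHDC1L averaged 3399.9 RPKM (SD 879) in 16-cell and 2434 (479.5) in early morula cells, within 2-fold at -0.48, beside a letter ratio of 1.98. NLRP7 averaged 727 RPKM (SD 219) in 16-cell and 1050.3 (266) in early morula cells, also within 2-fold (letter ratio 0.70). KHDC1 was lower, at 415 RPKM (SD 155) in 16-cell and 166 (111) in early morula cells, a ratio of -1.32, although its letter ratio was 2.90, the opposite sign. Its cells overlap. Members of these families have near-identical copies, among which reads can be split or lost, so their levels are uncertain.

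Genes of the machinery that degrades maternal RNA were mostly higher. Of 15 measured, 13 were higher and 1 lower, and the median was 2.11, and of the 12 with a letter ratio 10 were higher with letter H too, with a median of 2.40. CNOT1, the scaffold of the CCR4-NOT deadenylase, stood at 5.16, 7.52 and 13.8 RPKM in outer and 6.79 and 1.33 in inner 16-cell cells and between 63.1 and 137 RPKM with a median of 105 in the early morula. Its cells are separated, with a ratio of 3.71 and a letter ratio of 5.23. CNOT2, another subunit, had a ratio of 4.00 (letter ratio 2.27), and PAN3, of the PAN2-PAN3 deadenylase, 3.45 (3.48). EDC4, a scaffold of decapping, was the member that was lower, at 59.6 RPKM (SD 38.5) in 16-cell and 24.7 (12.7) in early morula cells, a ratio of -1.24 (-4.34), or -0.84 without 16C_outer B-09. YTHDF2, which reads methylated adenosines on maternal RNA, was within 2-fold at 0.43 (0.75).

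**Figure D3:**
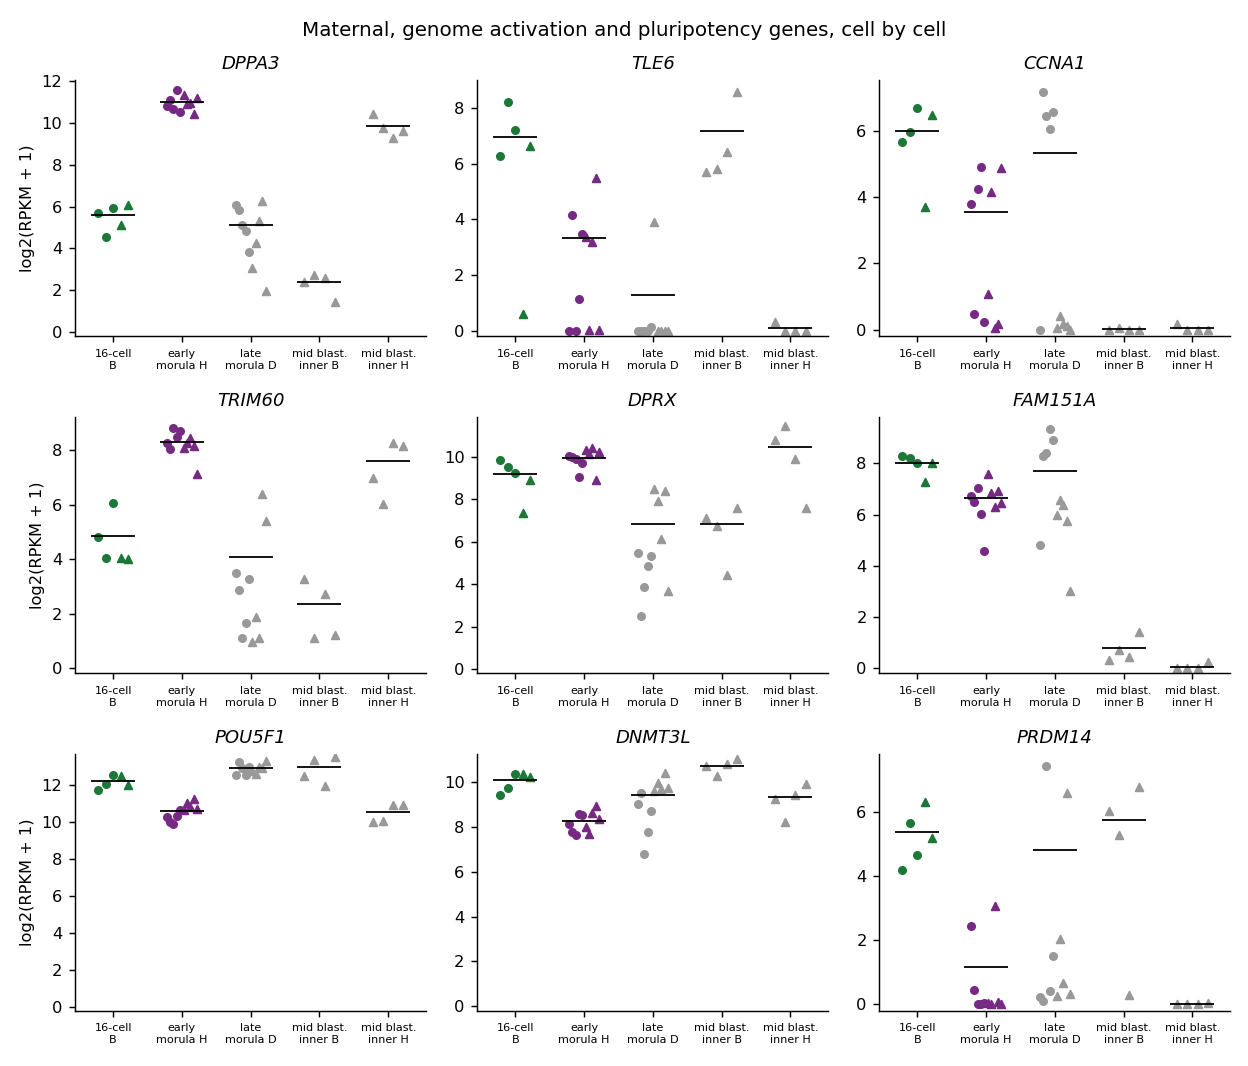
Values of 9 genes as log2(RPKM + 1), each point 1 cell (circles outer, triangles inner; B, H and D are title letters), lines the log2 of the mean plus 1. Green marks the 5 16-cell cells and purple the 10 early morula cells, grey the late morula and the inner middle blastocyst cells of either letter. DPPA3 and TRIM60 are higher and POU5F1, DNMT3L and PRDM14 lower in every early morula cell, and each also differs between the letters at the middle blastocyst.

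Genes of embryonic genome activation were split. Of 10 measured, 3 were higher and 3 lower, and the median of 0.14 turns to -1.0 under median-of-ratios size factors and to -0.10 in outer cells. TRIM60, a ubiquitin ligase gene of this phase, read 27.2, 15.4 and 66.1 RPKM in outer and 15.6 and 14.9 in inner 16-cell cells and lay between 137 and 454 RPKM with a median of 308 in the early morula. It is separated, with a ratio of 3.45 and a letter ratio of 5.25. ZNF280A, a zinc finger gene, had a ratio of 2.01 and a letter ratio of 5.66, with overlapping cells. DPRX, a homeobox gene of the cleavage embryo, was high in both stages, at 586 RPKM (SD 287) in 16-cell and 989 (297) in early morula cells, within 2-fold (0.75), beside a letter ratio of 3.64. The 3 lower members were not measured at the middle blastocyst, so no letter ratio stands beside them. CCNA1, the cyclin A of germ cells and the early embryo, stood at 50.0, 61.6 and 103 RPKM in outer and 11.9 and 88.2 in inner 16-cell cells. Early morula cells ranged between 0.0319 and 29.0 RPKM with a median of 7.04, and the ratio was -2.45. Its late morula mean was 39.1 RPKM, and its cells overlap between the stages. FAM151A had a ratio of -1.34 and 209 RPKM in the late morula. KLF17, a zinc finger factor of the early primate embryo, had a ratio of -1.51, or -2.16 without EM_outer H-02.

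Of 32 measured genes of the transcription machinery 14 were higher and 4 lower, beside 44.7% and 25.1% of all measured genes, and the median of 0.65 is close to the 0.64 of all measured genes. POLR2K, a small subunit shared by the RNA polymerases, was listed at 0 in all 5 16-cell cells, lay between 5.35 and 216 RPKM with a median of 90.8 in the early morula, and averaged 0.173 RPKM in the late morula. GTF2E1, of the general factor TFIIE, averaged 1.04 RPKM (SD 1.94) in 16-cell and 43.2 (19.4) in early morula cells, a ratio of 4.43, or 5.23 without 16C_outer B-01. It was near 0 in middle blastocyst cells of either letter and averaged 45.3 RPKM in the late morula. SUPT5H, an elongation factor, was lower and separated, at 161 RPKM (SD 13.5) in 16-cell and 40.1 (13.9) in early morula cells, a ratio of -1.98 (letter ratio -2.33).

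Chromatin and DNA methylation genes had a median of 2.11, with 13 of 23 measured higher and 5 lower, and their letter median was 1.56. The de novo DNA methyltransferases are among the genes within 2-fold between the letters. DNMT3A read 0, 0.0534 and 0.0231 RPKM in outer and 0.316 and 0.0997 in inner 16-cell cells. In early morula cells it lay between 0.576 and 34.6 RPKM with a median of 4.87, so every one was above the 16-cell cells, though the lowest was under 1 RPKM. The ratio was 3.24 and the letter ratio 0.19. DNMT3B, its partner enzyme, averaged 1.60 RPKM (SD 2.94) in 16-cell and 24.1 (18.7) in early morula cells, a ratio of 3.27, or 4.28 without 16C_outer B-01, with a letter ratio of -0.05. DNMT3L, the cofactor without catalytic activity, was lower and separated. It read 690.1, 871 and 1346 RPKM in outer and 1323 and 1207 in inner 16-cell cells and between 199 and 486 RPKM with a median of 306 in the early morula, a ratio of -1.80 beside a letter ratio of -1.42. DNMT1, the maintenance enzyme, was low throughout, at 17.6 RPKM (SD 9.37) in 16-cell and 2.44 (3.38) in early morula cells, a ratio of -2.44. SUZ12, of the Polycomb complex that methylates histone H3, averaged 0.217 RPKM (SD 0.0887) in 16-cell and 67.1 (33.9) in early morula cells (5.81; letter ratio 5.92), and HDAC2, a histone deacetylase, 4.30 RPKM (SD 1.56) in 16-cell and 69.6 (30.0) in early morula cells (3.73; 3.96). Histone genes had 4 higher and 4 lower of 13 measured. H3F3B, a replacement histone H3 gene, averaged 142 RPKM (SD 30.8) in 16-cell and 605 (204) in early morula cells (2.09; 2.93).

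Genes of the G2 and M phases were mostly higher, with 21 of 28 measured higher and 4 lower and a median of 2.06. Of the 24 with a letter ratio 19 were higher with letter H, with a median of 2.80. CDK1, the kinase that drives entry into mitosis, averaged 1.15 RPKM (SD 1.30) in 16-cell and 136 (88.7) in early morula cells, a ratio of 5.99 and a letter ratio of 6.00. MAD2L1, of the spindle checkpoint, had 5.02 (5.59) and ECT2, a regulator of cytokinesis, 5.08 (3.32). The lower members include parts of the same machinery. UBE2C, the ubiquitin-conjugating enzyme of the anaphase-promoting complex, read 1914, 1959.9 and 3203 RPKM in outer and 2404 and 1887 in inner 16-cell cells. Early morula cells lay between 539 and 1599 RPKM with a median of 802, all below the 16-cell cells. Its ratio of -1.32 is opposite in sign to its letter ratio of 1.64. AURKB, the kinase of the chromosomal passenger complex, was separated too. It averaged 411 RPKM (SD 228) in 16-cell and 79.9 (51.5) in early morula cells, a ratio of -2.35, with the letters within 2-fold (-0.37). CDC20, the coactivator of the anaphase-promoting complex, had a ratio of -1.81, but its letter ratio was -2.46. In the late morula UBE2C averaged 1703, AURKB 71.8 and CDC20 296 RPKM.

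S phase genes had 14 higher and 5 lower of 27 measured, beside 44.7% and 25.1% of all measured genes, with a median of 1.01. Of the 26 with a letter ratio 11 were within 2-fold between the letters. Of these 11, 5 were higher and 2 lower in the early morula, beside 16.4% and 28.6% of all genes so placed. MCM6, a subunit of the replicative helicase, averaged 15.8 RPKM (SD 19.3) in 16-cell and 80.2 (40.6) in early morula cells, a ratio of 2.27, or 3.19 without 16C_outer B-09, with a letter ratio of 0.28. CCNA2, the cyclin of S phase and G2, averaged 57.2 RPKM (SD 18.2) in 16-cell and 172 (98.6) in early morula cells, a ratio of 1.58 (-0.58). TYMS, which makes thymidylate, was lower and separated. It averaged 229.7 RPKM (SD 70.4) in 16-cell and 40.2 (28.2) in early morula cells, a ratio of -2.48 (-0.50). PCNA, the sliding clamp, was within 2-fold at 485 RPKM (SD 173) in 16-cell and 765 (217) in early morula cells (0.66; letter ratio 0.70).

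Genes of adhesion, junctions and transport that act at compaction were higher in 17 of 22 measured and lower in 3, with a median of 1.73. Letter ratios exist for all 22 and were higher in 16, with a median of 2.52, so the list differs as much between the letters. CDH1, the E-cadherin of compaction, was within 2-fold at 7.55 RPKM (SD 4.04) in 16-cell and 13.5 (8.51) in early morula cells, a ratio of 0.76 beside a letter ratio of 1.96. CTNNB1, the beta-catenin that binds its tail, had a ratio of 3.50 (4.29), and GJA1, a gap junction protein, 6.26 (7.52), or 6.87 without 16C_inner B-02. ATP1B3, a subunit of the sodium pump, averaged 49.6 RPKM (SD 27.3) in 16-cell and 373 (151) in early morula cells, a ratio of 2.89 that exceeds its letter ratio of 1.29. Of the list, 3 members were within 2-fold between the letters, and all 3 were higher in the early morula with overlapping cells. JUP, the plakoglobin of desmosomes, averaged 22.8 RPKM (SD 14.9) in 16-cell and 57.9 (28.1) in early morula cells (1.31, or 0.77 under median-of-ratios size factors; letter ratio 0.17). PKP2, a plakophilin, averaged 2.09 RPKM (SD 1.97) in 16-cell and 8.08 (5.14) in early morula cells (1.56; 0.51). CLDN3, a tight junction claudin, averaged 2.08 RPKM (SD 2.93) in 16-cell and 15.2 (22.1) in early morula cells (2.39, or 3.19 without 16C_outer B-02; letter ratio 0.14), with -0.18 between outer and 3.91 between inner cells. CLDN4, another claudin, rests on 1 cell, with a ratio of 1.08 that turns to -1.41 without EM_inner H-04 and falls within 2-fold without 16C_outer B-09 (0.80) or 16C_inner B-02 (0.92). Its letter ratio was -1.62, the opposite sign.

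AQP3, a channel for water and glycerol, showed the largest difference opposite to the letter ratio among these genes. It read 520.0, 1218 and 1045 RPKM in outer and 1582 and 994 in inner 16-cell cells. Early morula cells lay between 8.37 and 200.3 RPKM with a median of 67.4, all below. The ratio was -3.56, with -3.74 in outer and -3.52 in inner cells, while the letter ratio was 1.07. The late morula averaged 73.9 RPKM. CDH3, the P-cadherin, was also lower (-2.06) against a letter ratio of 2.73, with overlapping cells.

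Actomyosin and cortex genes had 16 higher and 6 lower of 33 measured, with a median of 0.85 beside 0.64 for all genes. CAPZA1, which caps actin filaments, had a ratio of 6.07 (5.58). ARPC1B, of the ARP2/3 complex that branches actin, was lower and separated, at 453 RPKM (SD 158) in 16-cell and 106 (28.2) in early morula cells, a ratio of -2.09, with the letters within 2-fold (-0.78). RHOC, a small GTPase of the contractile cortex, was higher at 0.638 RPKM (SD 1.23) in 16-cell and 21.4 (20.7) in early morula cells (3.77, or 4.36 without 16C_outer B-02; letter ratio -0.69). ACTB, the cytoplasmic beta-actin, was within 2-fold at -0.33, whereas its letter ratio was -3.28.

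Polarity and Hippo genes were higher in 10 of 19 measured and lower in 5. Both shares lie near the 44.7% and 25.1% of all measured genes. Their median was 1.01 over all 19. The 9 with a letter ratio had a letter median of -1.20, so these medians cover different genes. The 10 without one held 8 of the higher members, beside 56.1% higher of all genes not measured at the middle blastocyst. AMOT, the angiomotin that restrains YAP in inner cells, averaged 2.64 RPKM (SD 3.46) in 16-cell and 33.0 (19.8) in early morula cells, a ratio of 3.22, or 3.99 without 16C_inner B-02, and was near 0 in middle blastocyst cells of either letter. MOB1A, the adaptor of the LATS kinases, had a ratio of 3.51 (4.29). NF2, the merlin that activates the pathway, was lower in every early morula cell. It read 57.8, 106 and 62.3 RPKM in outer and 39.2 and 57.7 in inner 16-cell cells and lay between 3.18 and 32.6 RPKM with a median of 22.0, a ratio of -1.69 with the letters within 2-fold (0.25). VGLL4, which competes with YAP for TEAD factors, had a ratio of -2.33 (-6.31). TEAD4, the factor that YAP activates in the trophectoderm, had -1.10 (-1.20), or -0.97 without 16C_inner B-01 and -0.98 without 16C_outer B-01.

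Lineage markers were low or mixed at these stages. Of 11 measured trophectoderm markers 2 were higher and 5 lower, of 11 epiblast markers 3 were higher and 4 lower, and of 5 hypoblast markers 2 were higher and 1 lower. POU5F1, the pluripotency factor OCT4, read 3361, 4357 and 6095 RPKM in outer and 5681 and 4120.3 in inner 16-cell cells. Early morula cells lay between 955 and 2483 RPKM with a median of 1615, all below. Its ratio of -1.58 stands beside a letter ratio of -2.42, and the late morula averaged 7718 RPKM. NANOG, which sustains the epiblast, averaged 36.7 RPKM (SD 28.9) in 16-cell and 93.2 (49.6) in early morula cells (1.32, or 0.90 under median-of-ratios size factors; letter ratio 1.84), with overlapping cells. SOX2 was within 2-fold (-0.23). PRDM14, a repressor that keeps the germ and pluripotent state, was separated, at 40.6 RPKM (SD 24.2) in 16-cell and 1.23 (2.57) in early morula cells (-4.22; -5.73), and SALL4, a zinc finger partner of OCT4, at 158 RPKM (SD 37.8) in 16-cell and 39.2 (20.1) in early morula cells (-1.98; -1.78).

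Among trophectoderm genes CDX2, its later master factor, was not measured, with early morula cells between 0 and 18.0 RPKM with a median of 0.0291. GATA3 was lower, at 29.1 RPKM (SD 26.0) in 16-cell and 3.67 (3.60) in early morula cells (-2.69; letter ratio -1.59), and TFAP2C higher and separated, at 10.4 RPKM (SD 5.59) in 16-cell and 87.8 (38.3) in early morula cells (2.96; 4.21). HNF4A, a nuclear receptor of endoderm, was lower in every early morula cell while the letters were within 2-fold. It read 57.0, 31.8 and 64.2 RPKM in outer and 103 and 74.0 in inner 16-cell cells and lay between 4.35 and 24.8 RPKM with a median of 15.7 in the early morula. The ratio was -2.09, the letter ratio -0.52, and the late morula averaged 212 RPKM. APOE, a lipid carrier of the hypoblast list, was near 0 in 16-cell cells and lay between 0.522 and 45.8 RPKM with a median of 13.3 in the early morula, a ratio of 4.10 against a letter ratio of -1.06. Naive pluripotency genes split 5 higher to 5 lower of 16, with a median of 0.32 that turns to -0.14 under median-of-ratios size factors and to -0.25 in inner cells. TBX3, a T-box factor, averaged 1.15 RPKM (SD 2.17) in 16-cell and 9.43 (9.25) in early morula cells (2.28, or 3.13 without 16C_outer B-09; letter ratio 0.46). KLF4 averaged 138 RPKM (SD 82.1) in 16-cell and 390.3 (109) in early morula cells (1.49, or 0.98 under median-of-ratios size factors; 0.93).

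**Figure D4:**
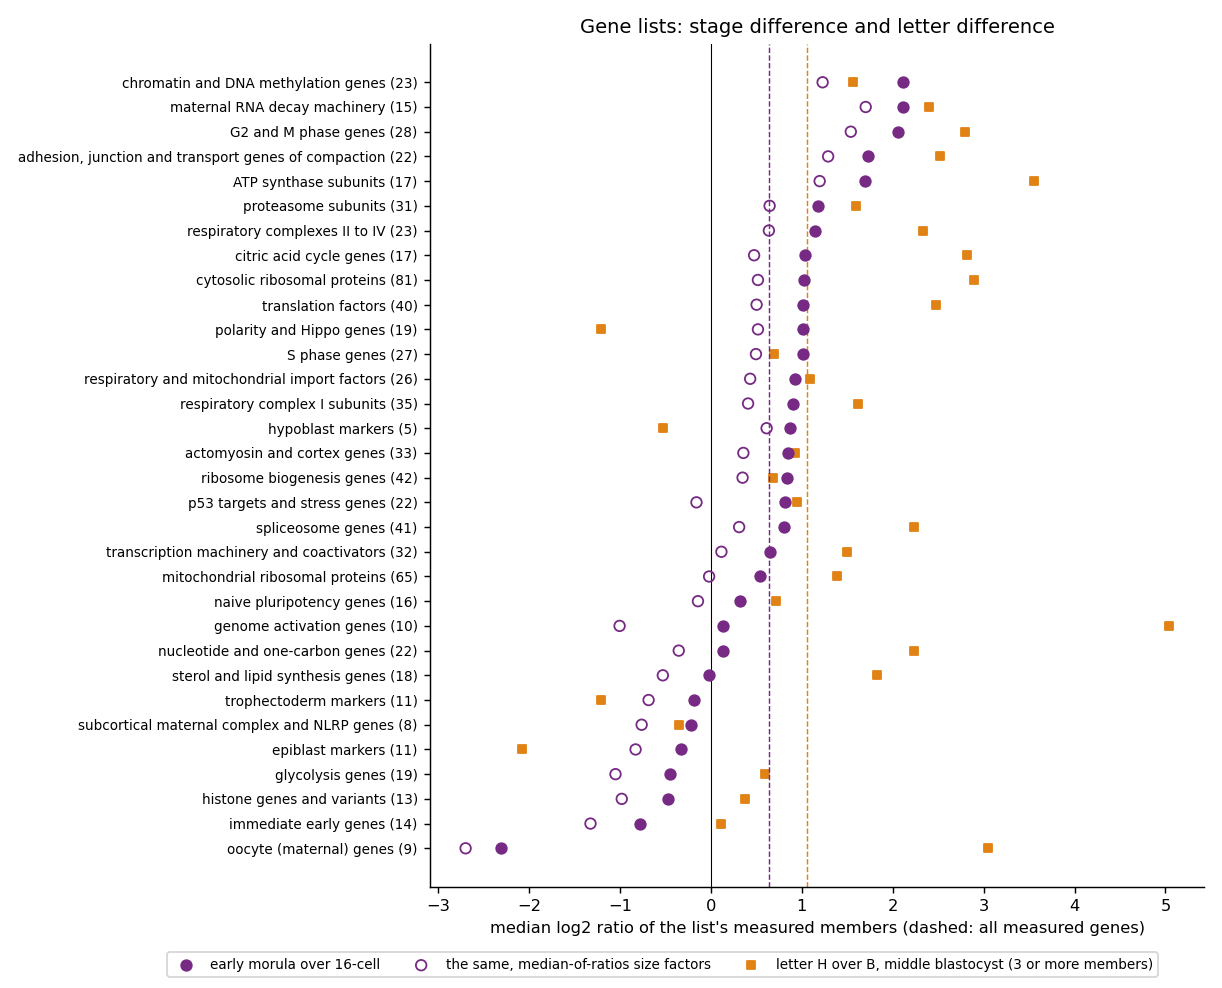
Median log2 ratio of each gene list with at least 5 measured members (number in brackets), for early morula over 16-cell cells (filled circles), the same with median-of-ratios size factors (open circles), and letter H over B in inner middle blastocyst cells over the members measured in both (squares). Dashed lines give the medians of all measured genes, 0.64 for the stages and 1.06 over the 5990 genes measured at the middle blastocyst. Glycolysis, immediate early, oocyte, histone and sterol and lipid synthesis genes have a negative stage median and a positive letter median, that of the sterol list being close to 0 for the stages. The stage and letter medians cover different members, for the oocyte list 9 and 3, so their signs cannot be set against each other there.

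Glycolysis genes were split. Of 19 measured 7 were lower and 6 higher, beside 25.1% lower and 44.7% higher of all measured genes, their median being -0.45, against a letter median of 0.60. The 5 within 2-fold between the letters held 3 lower and 0 higher members, beside 28.6% lower and 16.4% higher of all genes so placed. ENO1, the enolase, read 5334, 4385 and 4652 RPKM in outer and 3999 and 3591 in inner 16-cell cells. Early morula cells lay between 629.9 and 1248 RPKM with a median of 963, all below. The ratio was -2.23, the letter ratio -0.40, and the late morula averaged 1114 RPKM. HK1, the hexokinase that traps glucose in the cell, was separated too. It read 177, 203 and 184 RPKM in outer and 151 and 231 in inner 16-cell cells and lay between 18.0 and 64.0 RPKM with a median of 39.1, a ratio of -2.30 with a letter ratio of 0.76. ENO2, a second enolase, averaged 86.4 RPKM (SD 60.4) in 16-cell and 2.65 (4.44) in early morula cells (-4.58, or -5.24 without EM_outer H-02) and was near 0 in middle blastocyst cells of either letter. ALDOA, the aldolase, had a ratio of -3.13 and GAPDH, a later enzyme of the path, -1.29, beside letter ratios of -2.74 and -1.80. The higher members include LDHB, a lactate dehydrogenase, at 497 RPKM (SD 203) in 16-cell and 3924 (501) in early morula cells (2.98; 4.69). PFKL, a phosphofructokinase, was higher at 3.79 RPKM (SD 2.84) in 16-cell and 33.5 (21.9) in early morula cells, a ratio of 2.85 against a letter ratio of -1.30.

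Subunits of the respiratory chain and ATP synthase held few lower members. Complex I had 16 higher and 2 lower of 35, a share of higher genes near the 44.7% of all measured genes, complexes II to IV 12 and 2 of 23, and ATP synthase 11 and 1 of 17, with medians of 0.90, 1.15 and 1.70 beside letter medians of 1.62, 2.33 and 3.55. Members separated above came to 13, 10 and 8 in these lists, beside 13.4% of all measured genes. Those separated below came to 1 in each, beside 5.95%. COX7B, a small subunit of cytochrome oxidase, had the highest ratio of all separated genes. It read 3.22, 0.499 and 4.21 RPKM in outer and 0 and 0 in inner 16-cell cells and lay between 304 and 751 RPKM with a median of 517, a ratio of 7.68 beside a letter ratio of 8.30, and averaged 1.73 RPKM in the late morula. NDUFB5, of complex I, had a ratio of 7.08 (6.82) and ATP5C1, the gamma subunit of ATP synthase, 5.00 (6.53). Subunits of the same complexes differed the other way in both, NDUFS8 with -1.70 (-1.77) and ATP5D with -1.76 (-2.30). ATP5B, the catalytic beta subunit, was within 2-fold at 1799 RPKM (SD 379.7) in 16-cell and 1768 (269) in early morula cells (-0.03), beside a letter ratio of 1.73. COX6A1, of cytochrome oxidase, was lower while the letters were within 2-fold, at 799 RPKM (SD 249.9) in 16-cell and 311 (129) in early morula cells (-1.36; 0.51), with overlapping cells. Citric acid cycle genes had 9 higher and 2 lower of 17, with a median of 1.03 beside a letter median of 2.81.

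Sterol and lipid synthesis genes had 6 higher and 2 lower of 18, with a median of -0.02 that turns to 0.09 when cells are scaled on genes detected in each of them. HMGCS1, an enzyme at the head of sterol synthesis, averaged 0.0651 RPKM (SD 0.0926) in 16-cell and 17.5 (12.1) in early morula cells (4.12; letter ratio 4.00). Nucleotide and one-carbon genes had 9 higher and 5 lower of 22. IMPDH1, which commits purines to guanine nucleotides, was lower, at 288 RPKM (SD 77.1) in 16-cell and 85.0 (60.9) in early morula cells. Its ratio was -1.75 against a letter ratio of 1.09. It is separated only barely, the highest early morula cell being at 225.1 and the lowest 16-cell cell at 225.2 RPKM.

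Cytosolic ribosomal proteins were higher in 41 of 81 and lower in 8, beside 44.7% and 25.1% of all measured genes, with a median of 1.03. The higher share is near that background. In 39 of the 81 every early morula cell lay above and in 9 below, beside 13.4% and 5.95% of all measured genes. Of the 80 with a letter ratio 63 were higher and 4 lower with letter H, and their letter median was 2.90. RPS3A had a ratio of 5.13 (7.68) and RPL39 4.93 (9.41), whereas RPS2 had -1.77 (-1.93) and RPL8 -1.98 (-2.36). Subunits of 1 particle thus differed by opposite signs in both comparisons. Of the 13 within 2-fold between the letters 0 were higher and 4 lower, beside 16.4% and 28.6% of all genes so placed, so the lower share is near that background. The 4 include RPL3, a core protein of the large subunit, at 4627 RPKM (SD 1215) in 16-cell and 1669 (265) in early morula cells (-1.47; -0.59), and FAU, which encodes a small-subunit protein fused to a ubiquitin-like part, at 7275 RPKM (SD 1667) in 16-cell and 3319 (642) in early morula cells (-1.13; -0.14). Ribosomal protein genes have many near-identical pseudogenes, so these levels are uncertain.

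Translation factors had 20 higher and 7 lower of 40, beside 44.7% and 25.1% of all measured genes. The higher share is near that background. In 18 of the 40 every early morula cell lay above and in 7 below, beside 13.4% and 5.95% of all measured genes. The list's median was 1.02 beside a letter median of 2.48. EIF4G1, the scaffold of cap-dependent initiation, was lower in every early morula cell. It read 261, 276 and 374 RPKM in outer and 168 and 178 in inner 16-cell cells and lay between 42.7 and 87.1 RPKM with a median of 61.0, a ratio of -2.02 against a letter ratio of 1.87. EIF4E, the cap-binding protein that EIF4G1 holds, differed the other way (6.75; 5.44), with 88.7 RPKM in the late morula. EIF4EBP1, which blocks that binding, averaged 2249 RPKM (SD 1118) in 16-cell and 466 (217) in early morula cells (-2.27; -1.03). EIF2S3, a subunit of the factor that brings the initiator tRNA, was higher and separated while the letters were alike. It read 22.1, 12.8 and 34.9 RPKM in outer and 14.2 and 38.1 in inner 16-cell cells and lay between 61.4 and 166 RPKM with a median of 112, a ratio of 2.12 (0.10). EEF2, the translocase of elongation, was lower and separated, at 124 RPKM (SD 41.7) in 16-cell and 37.6 (10.9) in early morula cells (-1.69; 0.00).

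Mitochondrial ribosomal proteins had 24 higher and 12 lower of 65, with a median of 0.54 that turns to -0.02 under median-of-ratios size factors. Ribosome biogenesis genes had 20 higher and 13 lower of 42, proteasome subunits 16 and 4 of 31, spliceosome genes 18 and 4 of 41 and factors of respiratory assembly and mitochondrial import 12 and 5 of 26. Of all measured genes 44.7% were higher and 25.1% lower, and the higher shares of these lists lie near that. Members separated above came, in the same order, to 9, 11, 12, 14 and 10, beside 13.4% of all measured genes. Those separated below came to 5, 9, 4, 1 and 2, beside 5.95%. RRP9, of the nucleolar U3 particle, was lower and separated, at 259.8 RPKM (SD 102) in 16-cell and 37.6 (33.7) in early morula cells (-2.76; -0.70). NPM1, the abundant nucleolar chaperone, was higher, at 249 RPKM (SD 171) in 16-cell and 1260.1 (211) in early morula cells (2.33; 4.65). PSMA4, a proteasome core subunit, had a ratio of 7.06 (6.39), while PSMD8, of the regulatory particle, had -1.59 (-0.32). Beside the spliceosome's SNRPE, at 5.71 (6.17), PRPF31 stood at -1.62 (-1.0).

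Targets of p53 and stress genes were higher in 11 of 22 and lower in 4, beside 44.7% and 25.1% of all measured genes. The higher share is near that background. Their median of 0.82 turns to -0.16 under median-of-ratios size factors. Of the 9 within 2-fold between the letters 4 were higher and 1 lower, beside 16.4% and 28.6% of all genes so placed. GDF15, a cytokine of stressed cells, read 0, 0.239 and 0.0827 RPKM in outer and 0 and 0 in inner 16-cell cells. Every early morula cell was above, between 4.06 and 142 RPKM with a median of 55.0, and the cells spread widely. The ratio was 5.92, the letter ratio -0.94, and the late morula averaged 405 RPKM. PHLDA3, a p53 target that restrains AKT, was near 0 in all 16-cell cells and lay between 0 and 81.1 RPKM with a median of 12.6 in the early morula (4.68; -0.42). CDKN1A, the p21 inhibitor of the cell cycle, averaged 0.0107 RPKM (SD 0.0240) in 16-cell and 5.86 (7.25) in early morula cells (2.76; -0.40), with overlapping cells. HSPA5, the chaperone of the endoplasmic reticulum, averaged 10.6 RPKM (SD 7.58) in 16-cell and 53.6 (28.5) in early morula cells (2.24; 0.49). CHAC1 and DDIT3, both targets of the ATF4 branch of the stress response, differed in opposite directions. CHAC1 had 6.22, or 5.39 without EM_inner H-03, with 2.73 between outer and 7.20 between inner cells and 3.66 as a mean of log2 values, and its cells overlap. DDIT3, separated, had -3.07, or -3.68 without EM_outer H-04.

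Immediate early genes, which respond within minutes to a stimulus or to handling, leaned lower, with a median of -0.78. Of 14 measured 4 were higher and 6 lower, beside 44.7% and 25.1% of all measured genes. Of the 5 within 2-fold between the letters 0 were higher and 3 lower, beside 16.4% and 28.6% of all genes so placed. JUNB, an AP-1 subunit, averaged 80.6 RPKM (SD 52.8) in 16-cell and 24.2 (22.4) in early morula cells (-1.69; 0.11). FOS, its partner, had -1.48, or -2.21 without EM_outer H-03, -0.96 without 16C_outer B-02 and -0.96 without 16C_outer B-09, and turns to 0.40 between inner cells. Its letter ratio was 0.10. DUSP1, a phosphatase of the same response, was higher at 68.4 RPKM (SD 58.7) in 16-cell and 283 (180.3) in early morula cells (2.03; 4.18).

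The 10 separated genes with the highest ratios were COX7B, NDUFB5, CALM2, PSMA4, EIF4E, VBP1, TMEM126A, POLR2K, DPM1 and EIF3E. All but POLR2K, which was not measured there, were also higher with letter H. CALM2, a calmodulin, had 7.06 (7.90). VBP1, of the prefoldin chaperone, had 6.74 (6.95) and EIF3E, of an initiation factor, 6.43 (7.46), or 7.71 without 16C_inner B-02. The 10 with the lowest ratios were GIP, PRR19, TRIM50, RAPSN, TTC9B, ICAM3, GTPBP3, CACNB3, CNR2 and ST6GALNAC4, and 7 of them had no letter ratio. GIP, known as an incretin hormone of the gut, read 27.9, 419.9 and 158 RPKM in outer and 90.0 and 80.2 in inner 16-cell cells and lay between 0 and 3.66 RPKM with a median of 0.0456, a ratio of -6.79, or -5.99 without 16C_outer B-02. TRIM50, a ubiquitin ligase gene, averaged 215 RPKM (SD 71.8) in 16-cell and 2.61 (3.46) in early morula cells (-5.90; -5.65), and 180.3 RPKM in the late morula. ICAM3, an adhesion molecule of leukocytes, averaged 179.9 RPKM (SD 48.2) in 16-cell and 2.70 (6.71) in early morula cells (-5.61, or -6.81 without EM_inner H-02). CNR2, a cannabinoid receptor, and ST6GALNAC4, a sialyltransferase, were listed at 0 in all 10 early morula cells. CNR2 read 14.8, 8.26 and 117 RPKM in outer and 74.0 and 13.5 in inner 16-cell cells. ST6GALNAC4 read 25.6, 19.4 and 31.1 RPKM in outer and 33.2 and 65.7 in inner 16-cell cells.

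Counts of separated genes past 2-fold were 894 higher and 390 lower. Of these, 27 higher and 102 lower genes had a letter ratio within 2-fold or of opposite sign and the same direction in outer and in inner cells, and 131 and 54 were not measured at the middle blastocyst. GDF15 led the 27 higher genes. MDK, the growth factor midkine, averaged 1.80 RPKM (SD 1.89) in 16-cell and 91.4 (45.5) in early morula cells, a ratio of 5.04 against a letter ratio of -1.50. RPAIN, which carries the single-strand DNA binding protein RPA into the nucleus, averaged 0.0586 RPKM (SD 0.0613) in 16-cell and 48.5 (43.0) in early morula cells (5.55; 0.46) and 1.01 RPKM in the late morula. Its letter means spread widely, at 48.6 RPKM (SD 86.0) in the B and 67.3 (69.0) in the H cells. FOLR1, a folate receptor, averaged 10.3 RPKM (SD 14.5) in 16-cell and 179.6 (75.0) in early morula cells (3.99, or 4.86 without 16C_outer B-02; letter ratio 0.70) and 363 in the late morula. TRIM5, a restriction factor against retroviruses, averaged 0.0225 RPKM (SD 0.0363) in 16-cell and 23.3 (16.3) in early morula cells (4.57; 0.20).

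The 102 lower genes were led by LMBR1L, a membrane receptor gene, at 196 RPKM (SD 86.5) in 16-cell and 4.49 (8.75) in early morula cells (-5.17, or -6.11 without EM_outer H-04; 2.44). IL6R, the interleukin 6 receptor, read 75.8, 35.5 and 72.5 RPKM in outer and 72.2 and 93.2 in inner 16-cell cells. Early morula cells lay between 0.0102 and 5.83 RPKM with a median of 0.685, all below, with a ratio of -4.53 against a letter ratio of 1.25. CXXC1, which recruits histone H3 methyltransferases to CpG islands, averaged 139 RPKM (SD 72.1) in 16-cell and 7.59 (10.8) in early morula cells (-4.03, or -4.72 without EM_inner H-03; 0.17). CNPY3, a chaperone of Toll-like receptors, averaged 495 RPKM (SD 183) in 16-cell and 31.7 (29.3) in early morula cells (-3.92; -0.35) and 111 RPKM in the late morula.

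**Figure D5:**
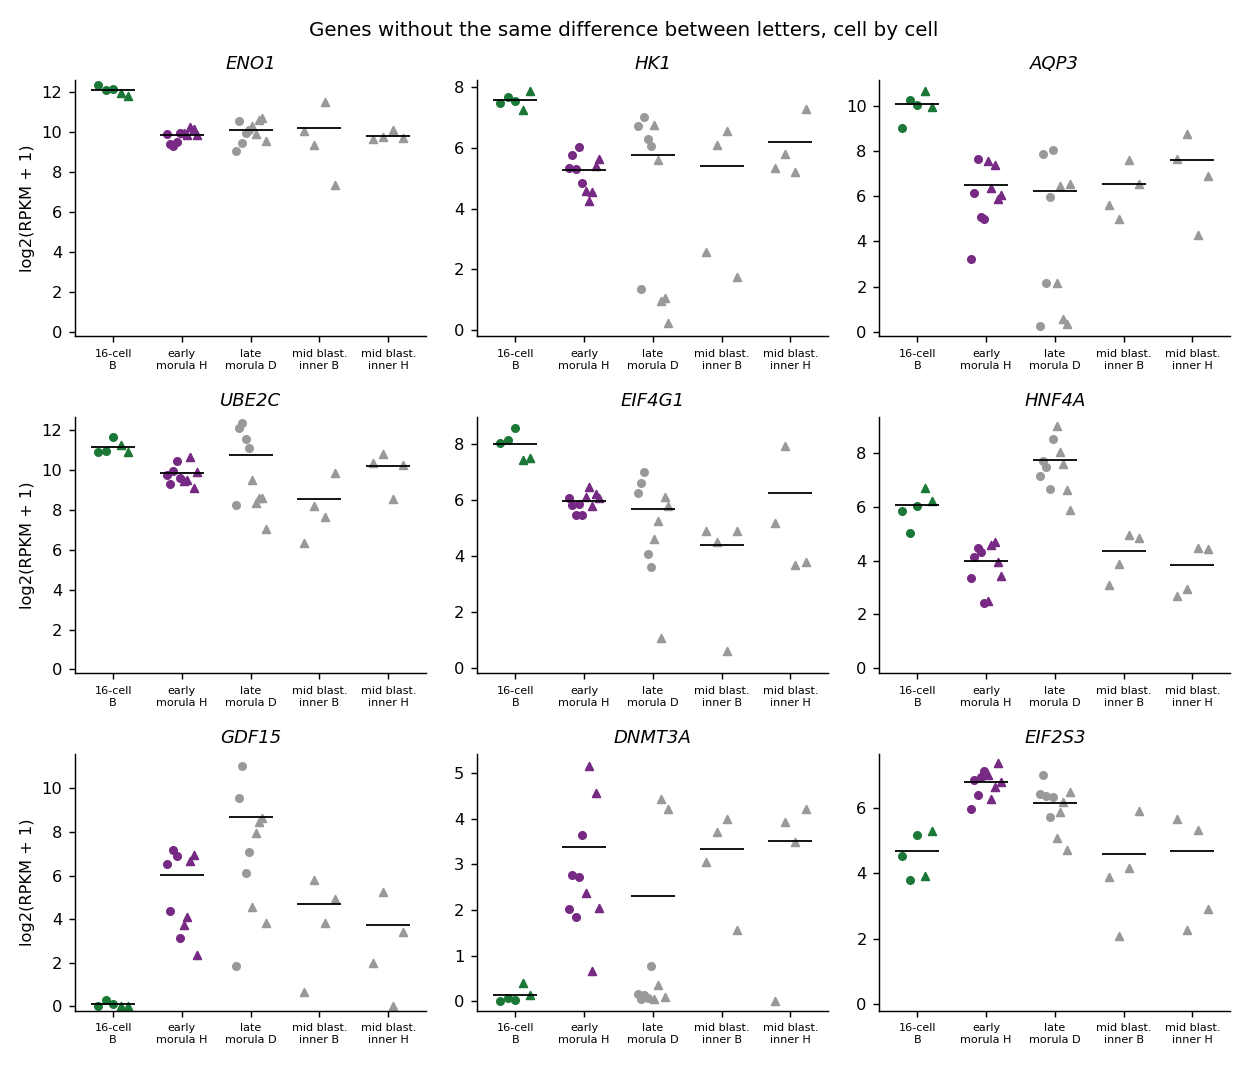
Values of 9 genes whose letter ratio is within 2-fold or of opposite sign, as log2(RPKM + 1), with groups, symbols and lines as in the plot of maternal genes. The 6 genes in the first and second rows are lower and the 3 in the last row higher in every early morula cell than in every 16-cell cell.

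Markers of other cells that could be carried along were mostly low. Of 12 cumulus and granulosa markers 0 were measured and 9 were listed at 0 in all 15 cells, and their summed level ran from 0 to 7.74 RPKM in 16-cell and from 0 to 15.8 in early morula cells. Of 8 sperm markers 0 were measured and 7 were at 0. FBLN1, of the matrix, was the fibroblast marker measured, 1 of 9, at 14.0 RPKM (SD 17.9) in 16-cell and 4.69 (4.70) in early morula cells (-1.40, or -0.38 without 16C_outer B-02; letter ratio -0.24), while the collagen genes COL1A2 and COL3A1 and DCN were near 0. The fibroblast list summed to 0.799 to 44.4 RPKM in 16-cell and 0.10 to 12.2 in early morula cells. Of 8 blood cell markers 2 were measured. CD14, a monocyte receptor, averaged 39.1 RPKM (SD 31.6) in 16-cell and 0.422 (1.14) in early morula cells and has no letter ratio. LYZ, a lysozyme of myeloid cells, was listed at 0 in the 16-cell cells and averaged 8.51 (SD 17.7, highest 50.4) in early morula cells. The letter ratio of LYZ was 5.60, so it was higher with letter H too. CD3D of lymphocytes and the globin genes HBA1 and HBA2 were listed at 0. The blood list summed to 0.0699 to 79.5 RPKM in 16-cell and 0 to 54.0 in early morula cells. The part of such cells in the differences was not tested.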

How the data were processed

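Each of the 95 cells has 1 library, and the 15 cells compared were grouped by stage from their titles. The deposited table gives 1 value per gene and cell and was taken as the authors' RPKM. Its numbers are fractional, but the low ones become whole reads once divided by 1 step per gene and 1 per cell (12692 of 16049 genes, 88.0% of low values within a tolerance of 0.05 reads). These recovered reads cover those genes alone and serve as a measure of depth. Per the submitters' processing notes, FastQC, TopHat2 2.1.0, HTSeq and DESeq2 are listed with no role or order. The genome build, the annotation and the use of strand are not given in the sources used here. No coordinates or sequences are therefore printed, and overlapping genes cannot be told apart. No molecular identifiers are mentioned in the labels' protocols.

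Stage means of RPKM were compared as log2 ratios after adding 1 RPKM, which understates low genes, with a minimum mean of 5 RPKM and a 2-fold threshold. The values were expected to be counts or RPKM, and the RPKM form was used. Gene lists and members were chosen with earlier results of these data known. Genes named were, per list, up to 3 in each direction and the 2 most abundant, the 10 highest and lowest separated genes, and 8 reference genes. Genes within 2-fold or opposite between the letters were added after their values were seen. Python 3.11.15, numpy 2.4.6, pandas 2.3.3 and scipy 1.17.1 were used, and the calls were tested on simulated data. Alternatives changed the pseudocount, filter, threshold, scaling, average, position and cells.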

Additional observations from a re-analysis of the deposited data

Results flagged for a closer look

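Of 216 sets of cells, each 1 named gene in 1 stage at a mean of at least 5 RPKM, 14 held a cell whose gap to its neighbour took up more of the stage's range on the log2(RPKM + 1) scale than the 95% limit for that number of cells. The limit is passed in about 1 in 20 such sets where values are independent and normally distributed. The share here was 6.48%. The genes share cells and their distribution was not tested, so that share does not tell whether the flags arose by chance. The cell 16C_inner B-01 held TLE6 at 0.515 RPKM against 76.9 to 296 in the other cells of its stage, FAM151A at 152 RPKM against 257 to 314 in the other cells of its stage and GTPBP3 at 329 RPKM against 208 to 222 in the other cells of its stage. The cell 16C_outer B-02 held IL6R at 35.5 RPKM against 72.2 to 93.2 in the other cells of its stage. EM_inner H-03 held TRIM5 at 2.30 RPKM against 13.7 to 64.7 in the other cells of its stage. In EM_inner H-05, the cell that stood apart on the second principal component, the values were KHDC1 at 1.65 RPKM against 86.9 to 391 in the other cells of its stage, CAPZA1 at 28.0 RPKM against 63.7 to 132 in the other cells of its stage, RPS3A at 1646 RPKM against 2155 to 2764 in the other cells of its stage and CALM2 at 101 RPKM against 223 to 524 in the other cells of its stage. The cell EM_inner H-08 held TRIM60 at 137 RPKM against 262 to 454 in the other cells of its stage. EM_outer H-02 held EEF2 at 12.6 RPKM against 32.2 to 53.5 in the other cells of its stage and DPM1 at 10.1 RPKM against 74.8 to 168 in the other cells of its stage. The cell EM_outer H-04 held TEAD4 at 66.6 RPKM against 113 to 202 in the other cells of its stage. The cell EM_outer H-06 held FAM151A at 22.8 RPKM against 64.2 to 190.4 in the other cells of its stage.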

How the results depend on the processing

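The counts of genes higher and lower stayed within 1.5 times of 3002 and 1681 under the other settings tried. The exceptions are 1853 higher and 1089 lower with a pseudocount of 10 RPKM, 1581 higher with a minimum mean of 20 RPKM, and 752 lower at 4-fold. Subtracting each gene's letter ratio, a setting chosen after seeing the data, left 1063 higher and 1851 lower of 5041 genes, and keeping only the genes within 2-fold between the letters, also chosen after seeing the data, left 186 and 324. Leaving out 1 cell at a time gave 2971 to 3069 higher and 1677 to 1718 lower genes. Separated genes came to 634 below with median-of-ratios size factors, to 1873 above and 852 below in outer cells and to 1775 and 1141 in inner cells, where fewer cells have to lie apart, and to 925 to 1035 above and 410 to 497 below without 1 cell. The letter contrast kept its counts within 1.5 times under size factors of its own, and with both contrasts so scaled 86.3% of 1637 higher and 64.6% of 1736 lower genes had the same letter call.

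Subtracting the letter ratio turned the sign of the list medians to -0.18 for RNA decay, -0.88 for adhesion, -0.32 for G2 and M phase, -0.83 for complexes II to IV, -1.75 for ATP synthase, -0.77 for the citric acid cycle, -1.92 for cytosolic ribosomal proteins, -1.03 for translation factors, -0.43 for the proteasome and -0.25 for chromatin genes. The median of all 5041 genes so treated was -0.40, so the shift is not particular to these lists. RNA decay, G2 and M phase and chromatin genes lie above that value, the proteasome near it and the other lists below. The subtraction turned the sign of 41 of the 108 named genes past 2-fold that have a letter ratio. With no filter the oocyte genes' median was 0. CLDN4 turned to -2.42 as a median over cells, -1.66 as a mean of log2, -0.83 in outer cells and -1.41 without EM_inner H-04, CLDN3 to -0.18 in outer cells and FOS to 0.40 in inner cells. Of the 129 named genes past 2-fold, 10 were within it or turned with a pseudocount of 10 RPKM (NPM2, GDF9, KLF17, DNMT3A, CLDN4, PKP2, TBX3, CDKN1A, FOS and FBLN1), 4 under median-of-ratios size factors (CLDN4, JUP, NANOG and KLF4), 5 as medians over cells (NPM2, GDF9, CLDN4, TEAD4 and KRT18), 4 in outer cells (NPM2, CLDN3, CLDN4 and NANOG) and 10 in inner cells (ASTL, EDC4, FAM151A, JUP, TEAD4, KRT18, RPL3, EEF2, FOS and FBLN1).

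No paired analysis was possible because the stages have only 1 title number in common. Outer and inner cells of a stage share several numbers, which the labels do not explain. The planned search of promoter motifs was not run. With 5 and 10 cells and unknown embryos, a gene's mean can rest on 1 cell, and levels near 1 RPKM are a few reads.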
